A study of Mus musculus with 6 samples.

Results

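The receptors for glutamate, GABA, glycine and acetylcholine were examined in the retina of mice at postnatal day 4 (P4), as 50 genes of the 12394 named on the array, measured by 64 of its 22690 probe sets. They were chosen by gene symbol alone: AMPA (Gria), kainate (Grik), NMDA (Grin), delta (Grid) and metabotropic (Grm) glutamate receptors, GABA-A and GABA rho (Gabr) and GABA-B (Gabbr) receptors, glycine receptors (Glra, Glrb), and nicotinic (Chrn) and muscarinic (Chrm) acetylcholine receptors. RNA was taken from retinas of 3 wildtype mice and 3 Nhlh2 knockout mice, all on a mixed C57/129 background and all at postnatal day 4, with wildtype and knockout mice of the same replicate number being littermates. Each retinal sample was hybridised to 1 Affymetrix mouse expression array, which reads a transcript by a group of short probes, the probe set. Nhlh2 encodes a helix-loop-helix transcription factor of developing neurons. The sources used here do not describe the knockout allele further. Nhlh2 itself was not analysed here, so the genotype labels were not checked on the targeted gene.

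Ionotropic receptors are ion channels built from several subunits. AMPA, kainate and NMDA receptors carry fast excitation by glutamate, GABA-A and glycine receptors are chloride channels, and nicotinic receptors are cation channels opened by acetylcholine. Metabotropic glutamate, GABA-B and muscarinic receptors act through G proteins instead. In the retina, waves of activity that sweep across ganglion cells before eye opening are carried for a time by acetylcholine from starburst amacrine cells and later by glutamate from bipolar cells. Glycine and GABA are also transmitters of amacrine cells.

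Signals were scaled to a 2% trimmed mean of 500 in each array, because the deposited signals differed in overall level (medians of 51.4 to 95.6 in 5 arrays and 9 in knockout replicate 2). After scaling the medians ran from 151 to 178. Every signal below is on this scaled linear scale and has no unit. The array of knockout replicate 2 stood apart: its ratio of 3' to 5' signal was 274 for Actb and 15.6 for Gapdh, against 1.38 to 1.56 and 0.698 to 0.838 in the other 5 arrays. Results in the knockout are therefore given with and without this array, and what this RNA quality measure contributes to them was not tested. Of the markers of retinal neurons, 9 of 11 measured for amacrine cells were above the median in each wildtype array, 8 or 9 of 10 for ganglion cells and 6 or 7 of 8 for photoreceptors. Fewer were above it for bipolar cells (5, 3 and 2 of 7 in wildtype replicates 1, 2 and 3) and horizontal cells (1, 1 and 2 of 4). In the knockout arrays the counts were 9 or 10 for amacrine cells, 8, 5 and 8 for ganglion cells, 6, 5 and 7 for photoreceptors, 2, 2 and 4 for bipolar cells and 1, 1 and 0 for horizontal cells. Lens genes were above the median in wildtype replicate 1 (9 of 11 measured, summed signal 22288) and in no other wildtype array (375 and 502).

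Few of the receptors had a high signal in the wildtype P4 retina. Below, expressed means a signal higher than the median of all signals on the same array. Of the 64 receptor probe sets, 9 were expressed in all 3 wildtype arrays, 5 in 1 or 2 of them, and 50 in none. These 9 make 14.1%, while of all 22626 probe sets other than controls 45.4% were expressed in all 3 wildtype arrays. The 9 probe sets belong to 6 genes: the AMPA receptor subunits Gria1 and Gria2, the kainate receptor subunit Grik5, the GABA-B receptor subunit Gabbr1, and the nicotinic subunits Chrna3 and Chrnb4. The nicotinic subunit Chrna6, the GABA-A subunit Gabra2 and the glycine receptor subunit Glrb were expressed in some of the arrays, and the other 41 genes in none. Signals depend on the probes as well as on the transcript, so a signal below the median does not show that a receptor was absent, and signals of different probe sets were not ranked against each other.

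**Figure D1:**
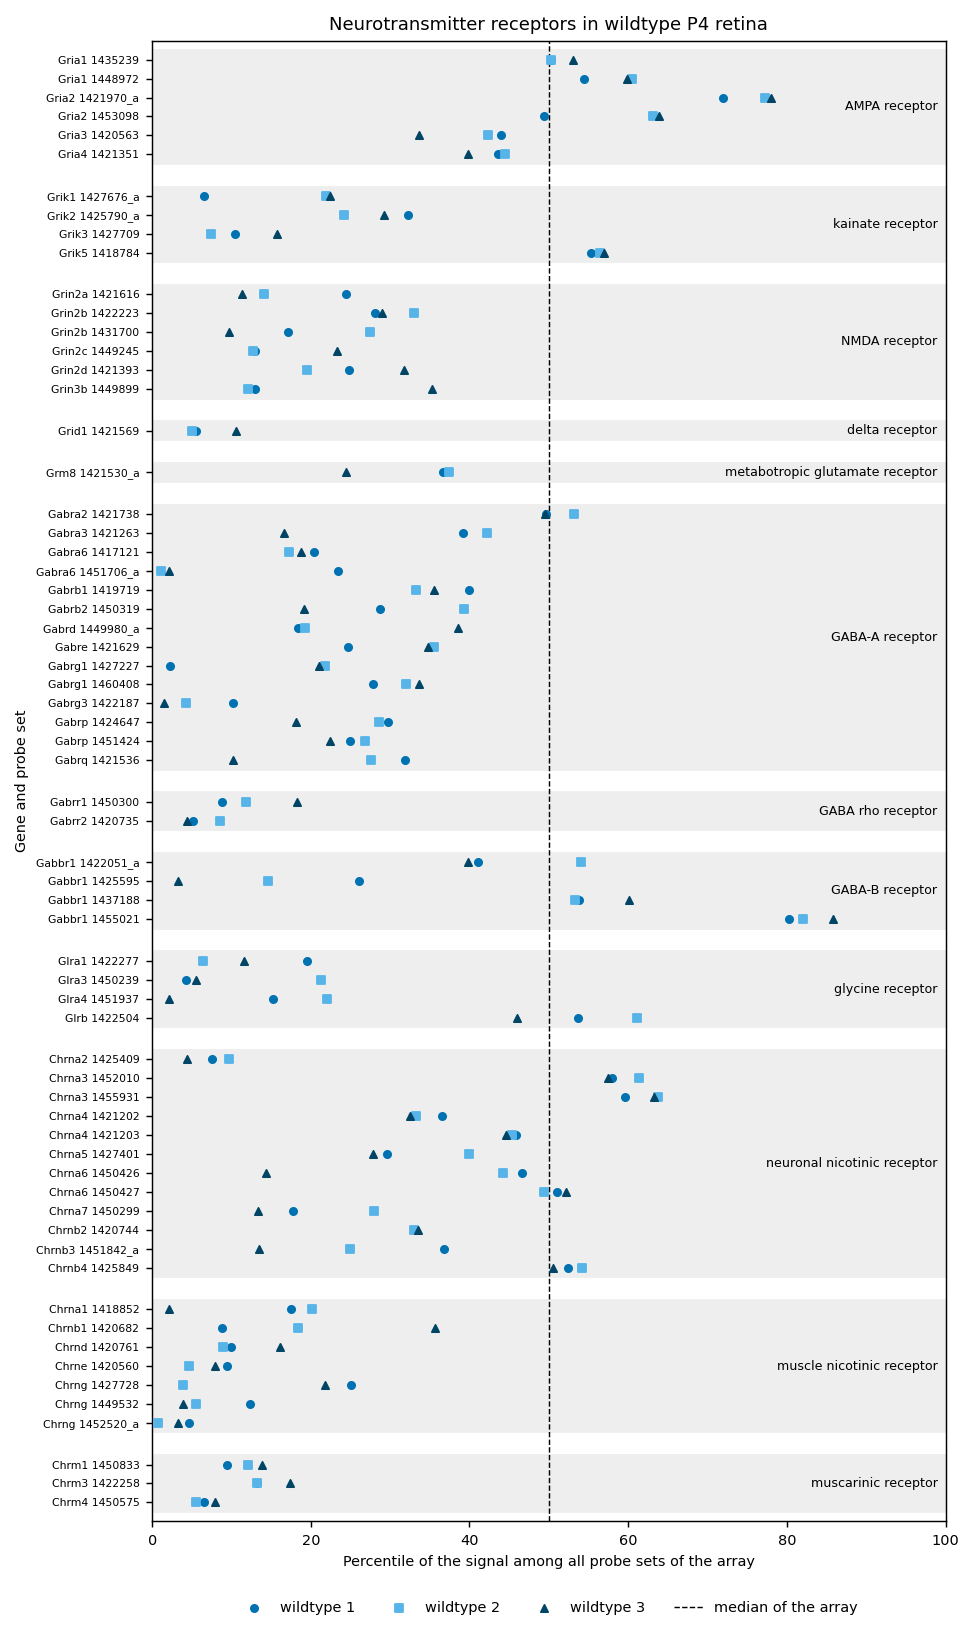
Percentile of the signal of each of the 64 receptor probe sets among all probe sets of the array (x axis) in the 3 wildtype arrays, 1 symbol per array, grouped by receptor class, with the median of the array as a dashed line. Both Chrna3 probe sets, Chrnb4, Grik5 and 2 Gabbr1 probe sets lie to the right of the line in all 3 arrays, whereas all 6 NMDA, all 7 muscle nicotinic and all 3 muscarinic probe sets lie to the left.

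The share of expressed probe sets was close to that of another group of channels and not to that of synaptic proteins. Of 127 probe sets for voltage-gated and potassium channels, 16 (12.6%) were expressed in all 3 wildtype arrays, and of 51 for synaptic vesicle and release genes 23 (45.1%). These shares are descriptions of lists on the same arrays and were not tested against each other. At the lower end, 23 of the 64 receptor probe sets (35.9%) were at or below the 25th percentile in all 3 wildtype arrays, as were 17.9% of all probe sets. Between the 25th percentile and the median in all 3 arrays lay a further 9, those of Gria3, Gria4, Grin2b (1 of 2), Gabrb1, Gabrg1 (1 of 2), Chrna4 (both), Chrna5 and Chrnb2.

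**Figure D2:**
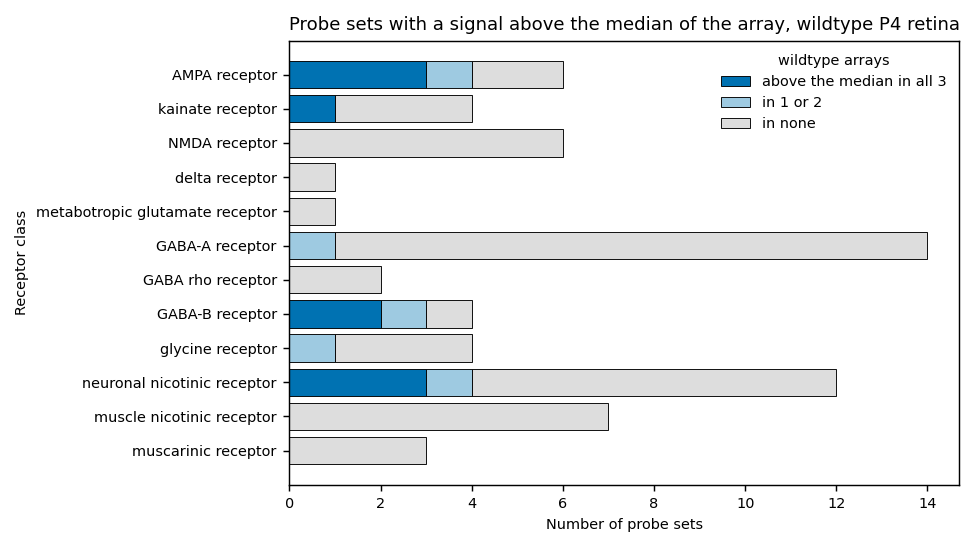
Number of receptor probe sets (x axis) of each class (y axis) whose signal was above the median of the array in all 3 wildtype arrays, in 1 or 2, or in none. Of the 14 GABA-A probe sets none was above in all 3, while 3 of 6 AMPA and 3 of 12 neuronal nicotinic probe sets were.

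Among the glutamate receptors, 4 of 18 probe sets were expressed in all 3 wildtype arrays. Gria2, the subunit whose RNA is edited to limit calcium entry through AMPA receptors, had signals of 528, 689 and 673 in wildtype replicates 1, 2 and 3 on 1421970_a_at, or 630.1 ± 88.7 (SD, n = 3 mice). Its other probe set, 1453098_at, gave 168, 348 and 327, with wildtype replicate 1 just below the median of its array. Gria1, another pore-forming AMPA subunit, had 221, 304 and 266 on 1448972_at and 175, 181 and 184 on 1435239_at. Both Gria1 probe sets were thus above the median in each wildtype mouse, the latter by a narrow margin. Gria3 (122, 114 and 56.5) and Gria4 (119, 129.7 and 83.9) were below the median in all 3 mice and lowest in replicate 3.

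Of the kainate receptors, Grik5 alone was expressed. It encodes a subunit that forms channels only together with other kainate subunits, and its signals of 230.4, 249 and 228 differed little among the wildtype mice (236 ± 11.6; SD, n = 3). The partners measured, Grik1, Grik2 and Grik3, had signals of 4.75 to 58.8 and were below the median in every wildtype array. Grik1, which is known from OFF bipolar cells, had 4.75, 30.6 and 26.6.

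None of the 6 probe sets for NMDA receptor subunits was expressed in any wildtype array, with signals from 5.91 to 64.5. No probe set for the subunit gene Grin1 was among them, so the class was measured only in part. Grin2b, the subunit typical of young neurons, had 46.2, 64.5 and 41.9 on 1422223_at and 19.9, 45.3 and 5.91 on 1431700_at. Grin2a, the subunit that is added as circuits mature, had 36.7, 14.0 and 7.53. Grin2c, Grin2d and Grin3b had means of 17.1, 37.7 and 28.0. The delta receptor Grid1 (mean ± SD 4.78 ± 1.70, n = 3) and the presynaptic metabotropic receptor Grm8 (63.8 ± 28.9) were likewise below the median in all 3 mice. Each was the only gene of its class measured.

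Inhibitory receptors were mostly below the median, with the exception of Gabbr1. Of 14 probe sets for 11 GABA-A subunits, none was expressed in all 3 wildtype arrays. The closest was Gabra2, an alpha subunit, with 170.2, 211 and 149, which lay above the median in replicate 2 only and near it in the others. The remaining 13 had signals of 1.34 to 113, among them the alpha subunit Gabra3 (90.3, 113 and 15.1) and the beta subunits Gabrb1 (94.8, 65.2 and 63.4) and Gabrb2 (47.8, 94.0 and 19.9). Gabra3 and Gabrb2 were lowest in replicate 3. Gabra6, a subunit known from cerebellar granule cells, had means of 22.3 and 12.4 on its probe sets. The rho subunits Gabrr1 and Gabrr2, which are known from bipolar cells, had means of 11.5 and 4.23.

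Gabbr1, the subunit of the GABA-B receptor that binds GABA, had 4 probe sets that differed widely. On 1455021_at the signal was 810, 890.3 and 1103, the only receptor probe set above the 75th percentile in all 3 wildtype arrays. On 1437188_at it was 212, 212 and 269, also expressed in each mouse. On 1422051_a_at it was 103, 220.2 and 83.6, above the median in replicate 2 only, and on 1425595_at 40.5, 14.7 and 2.15, below it in all. Which transcripts of the gene each probe set detects was not examined. Over all receptors, 11 genes had several probe sets, and only for Gabbr1 and Gria2 were some expressed in all 3 wildtype arrays and others not.

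For glycine receptors, the beta subunit and the alpha subunits differed. Glrb, which anchors the receptor to the scaffold protein gephyrin, had 211, 315 and 121, above the median in replicates 1 and 2 but not in 3. The ligand-binding alpha subunits Glra1, Glra3 and Glra4 had signals from 1.61 to 30.8 and were below the median in every wildtype mouse. Gphn, which encodes gephyrin, was expressed in all 3 on both of its probe sets (768, 661 and 557 on 1426462_at; 710.4, 596 and 426 on 1426463_at).

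Acetylcholine receptors of the neuronal type included a pair of neighbouring genes that were both expressed. Chrna3, the alpha subunit of ganglionic-type nicotinic receptors, had signals of 262, 319 and 234 on 1452010_at and of 284, 358 and 315 on 1455931_at. Chrnb4, a beta subunit that assembles with it, had 197, 222 and 158, or 193 ± 32.3 (SD, n = 3). All 3 probe sets were above the median in each wildtype mouse, Chrnb4 by the smaller margin. In the RefSeq annotation Chrna5, Chrna3 and Chrnb4 follow each other with no other protein-coding gene between. Chrna5, an accessory subunit, was below the median in all 3 mice with 50.5, 98.2 and 38.7.

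Chrna6, a subunit known from visual projections of ganglion cells, had 181, 173 and 174 on 1450427_at, above the median in replicates 1 and 3 and just below it in 2, and 143, 128 and 11.3 on 1450426_at, where replicate 3 was far below the others. Its neighbour Chrnb3 had 77.2, 38.2 and 9.95, again lowest in replicate 3. Chrnb2, the beta subunit known to be needed for the cholinergic retinal waves, had 62.0, 64.3 and 55.6 and was below the median in each mouse. The alpha subunit Chrna4 was below it too, with 136, 137 and 111 on 1421203_at and 76.0, 65.4 and 52.4 on 1421202_at. Chrna7, which forms channels on its own, had 21.5, 46.8 and 9.68, and Chrna2 had 5.43, 7.08 and 2.69.

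The nicotinic subunits known from the muscle synapse were low throughout. All 7 probe sets for Chrna1, Chrnb1, Chrnd, Chrne and Chrng were below the median in every wildtype array, with signals from 1.12 to 63.7. Of 8 other muscle markers none was above the median in any wildtype array. The muscarinic receptors Chrm1, Chrm3 and Chrm4 had signals of 3.91 to 16.4.

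The promoters of the adjacent genes Chrna3 and Chrnb4 are shown because Nhlh2 belongs to a family of factors that binds the E-box, CANNTG. The 250 bases before the start of each gene are from RefSeq for GRCm38.p6, written 5' to 3' on the strand of the gene, with matches to CANNTG in capitals.
Chrna3, GRCm38.p6 chr9:55026563-55026812, minus strand: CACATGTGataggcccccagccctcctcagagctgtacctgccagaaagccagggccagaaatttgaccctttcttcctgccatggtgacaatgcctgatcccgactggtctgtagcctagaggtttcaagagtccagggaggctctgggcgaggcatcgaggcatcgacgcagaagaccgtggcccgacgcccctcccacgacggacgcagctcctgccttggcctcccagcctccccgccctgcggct
Chrnb4, GRCm38.p6 chr9:55048545-55048794, minus strand: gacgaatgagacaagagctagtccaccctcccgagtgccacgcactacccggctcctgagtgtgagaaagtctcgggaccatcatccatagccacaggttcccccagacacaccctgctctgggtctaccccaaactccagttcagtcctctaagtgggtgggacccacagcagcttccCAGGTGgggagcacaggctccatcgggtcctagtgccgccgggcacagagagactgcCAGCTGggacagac
Each held 2 matches, which overlap in Chrna3 and are apart in Chrnb4. Of the other receptor genes expressed in all 3 wildtype arrays, Gria2 held 1 match, Gabbr1 and Grik5 held 0, and none was found for Gria1 because its promoter was missing. The mean over all promoters was 1.16. CANNTG is its own reverse complement, so 1 search covers both strands. Of 44 promoters found for 37 of the receptor genes, 61.4% held at least 1 match, against 66.2% of all 32851 promoters in the table. A match is a description of letters and not a site that was tested.

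Among probe sets expressed in all 3 wildtype arrays, the mice differed from each other about as much in receptors as in other genes. Over the 9 probe sets expressed in all 3, the coefficient of variation ran from 2.52% to 16.8% with a median of 14.2%, beside a median of 15.5% over all 10279 such probe sets. Several receptors outside these 9 were lowest in replicate 3, among them Glrb, Chrna6 on 1450426_at, Chrnb3 and Gabra3. For these 4, named after their values were seen, the knockout littermate was low too. For others it was not, such as Gabbr1 on 1425595_at (2.15 in wildtype and 65.0 in knockout replicate 3) and Gabrp on 1424647_at (18.0 and 54.2). Glrb had 121 in wildtype replicate 3 and 121 in knockout replicate 3, against 211, 315 and 257 in wildtype replicates 1 and 2 and knockout replicate 1. Chrna6 on 1450426_at had 11.3 and 38.0 in these littermates, against 143, 128 and 155 in the other mice without knockout replicate 2. Chrnb3 had 9.95 and 5.30 against 77.2, 38.2 and 57.8, and Gabra3 had 15.1 and 24.4 against 90.3, 113 and 68.1. Gabbr1 on 1455021_at went the other way, with 1103 and 1046 against 810, 890.3 and 763.

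Among probe sets above the median in at least 3 of 6 arrays, this split of littermate pair 3 from the other mice was as common in other genes. Of the 13 receptor probe sets above the median in at least 3 of 6 arrays, 7 had both arrays of pair 3 outside the range of wildtype replicates 1 and 2 and knockout replicate 1, which were 4 below and 3 above. Over all 11603 such probe sets the share was 55.3%, near that of the receptors. Litter and any processing shared by these samples cannot be told apart.

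**Figure D3:**
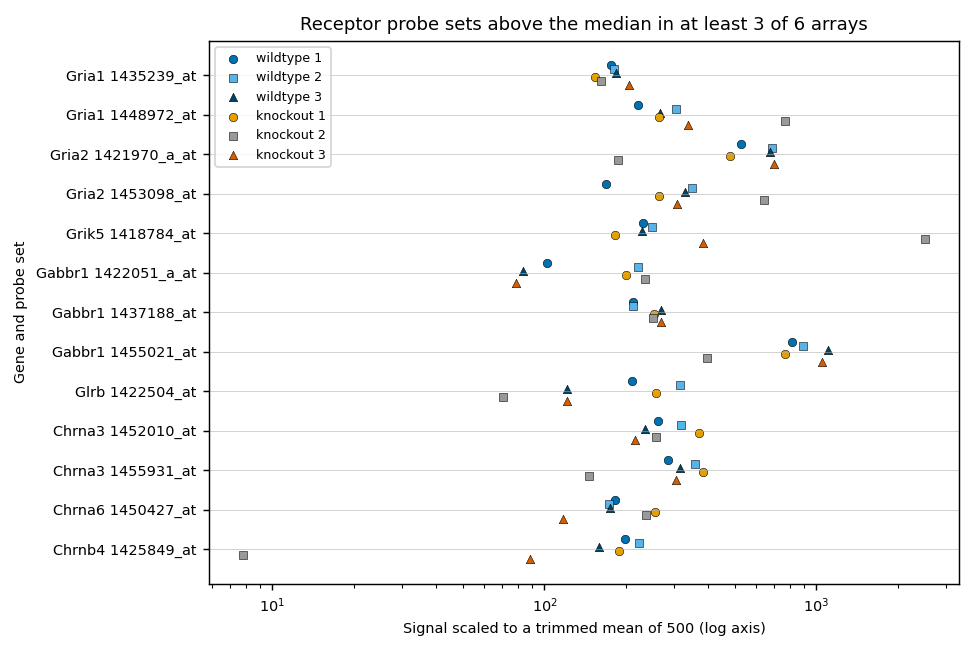
Scaled signal (log x axis) of the 13 receptor probe sets above the median in at least 3 of 6 arrays, 1 symbol per array. Knockout replicate 2 (grey squares) lies far from the rest for Grik5 (2513) and Chrnb4 (7.79), and the littermates of pair 3 (triangles) lie below wildtype replicates 1 and 2 and knockout replicate 1 for Glrb.

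Knockout and wildtype mice were then compared receptor by receptor. No receptor probe set passed the test. Of the 64 probe sets 13, of 8 genes, were above the median in at least 3 of 6 arrays and were tested, and 0 of them were called at an adjusted p under 0.05 (limma over 11603 probe sets). Over all probe sets tested the share called was 0%, with 11 at an unadjusted p under 0.05. Without knockout replicate 2 the share called was again 0%, with 85 at an unadjusted p under 0.05 and 0 of them receptors. The lowest adjusted p of a receptor was 0.75 with 6 arrays and 0.9995 without knockout replicate 2. Standard errors of the log2 differences were 0.20 to 0.54 without that array and 0.28 to 1.10 with it, so a moderate change of a single receptor would not have been detected.

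Within littermates, the 13 tested probe sets showed no shared direction. The median log2 difference, knockout minus wildtype, was 0.25 in pair 1 where 8 of 13 were higher in the knockout. It was -0.05 in pair 3, where 5 of 13 were higher, while the medians of all probe sets tested were 0.00417 and 0.00531. In pair 2, which holds the array that stood apart, the median was -0.16 with 6 of 13 higher, and -0.56 over all probe sets. In pairs 1 and 3 none of the 13 differed by more than 2-fold, but of all probe sets tested only 0.526% and 2.00% did. In pair 2 it was 7 of 13, beside 60.0% of all probe sets. Pairs 1 and 3 had the same sign for 4 of the 13 probe sets, and for 48.2% of all. All 3 pairs had the same sign for 3 of the 13, those of Chrnb4, Gria1 (1448972_at) and Gabbr1 (1455021_at), and for 2788 of all 11603, so that the share of the receptors was near that of all probe sets.

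Chrnb4 was lower in the knockout in all 3 littermate pairs without passing the test. Its signals in the knockout mice were 187, 7.79 and 88.6, against 197, 222 and 158 in their wildtype littermates. The 7.79 of knockout replicate 2 was 0.4 as deposited, near the bottom of that array (percentile 2.48). The groups overlapped, since knockout replicate 1 lay within the wildtype range, and the log2 differences were -0.07, -4.67 and -0.83 in pairs 1, 2 and 3. The fit gave -1.86 ± 1.10 (SE; limma adjusted p = 0.75) with 6 arrays and -0.56 ± 0.35 (adjusted p = 0.9995) without knockout replicate 2.

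Chrna3, the neighbour of Chrnb4, was higher in the knockout in pair 1 and lower in pairs 2 and 3 on both probe sets. On 1452010_at the knockout mice had 369, 257 and 215, and on 1455931_at 383, 146 and 304.9, so that wildtype and knockout overlapped. Chrna6 on 1450427_at had 255, 236 and 117 in the knockout, which is above the littermate in pairs 1 and 2 and below it in pair 3. The summed signal of 10 ganglion cell markers was 6708 in knockout replicate 1 and 5531 in replicate 3, against 6939 and 6497 in their wildtype littermates and 6776 in wildtype replicate 2. Most of the difference between the littermates of pair 3 came from Ebf3 (1184 in wildtype and 704 in knockout) and Nefl (1919 and 1509), whereas Gap43, Rbpms and Pou4f3 were higher in the knockout mouse. Knockout replicate 2 left out, the sum was lowest in knockout replicate 3, as were Chrna3 on 1452010_at, Chrna6 on 1450427_at and Chrnb4. On 1455931_at, however, Chrna3 was lowest in wildtype replicate 1 (284, against 304.9 in knockout replicate 3). Chrna6 on 1450426_at was lowest in wildtype replicate 3 (11.3, against 38.0 in knockout replicate 3). The low sum in knockout replicate 3 was not particular to ganglion cell markers. With knockout replicate 2 left out, it was also lowest for amacrine cells (16686, against 16715 in wildtype replicate 1), horizontal cells (388) and vessels (2507). For the other marker lists it was not the lowest. What any of these markers have to do with the receptor values was not tested. In such bulk samples, fewer cells of a type and less RNA per cell cannot be told apart.

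Among the other receptors, Gria1 on 1448972_at was higher in the knockout in all 3 pairs. Its knockout signals were 264.0, 765 and 338 against 221, 304 and 266 in the wildtype littermates, and knockout replicate 1 lay within the wildtype range. The log2 differences were 0.25, 1.33 and 0.34, and the fit gave 0.64 ± 0.46 with 6 arrays and 0.19 ± 0.23 without knockout replicate 2 (SE; limma adjusted p = 0.75 and 0.9995). On its other probe set, 1435239_at, the differences were -0.18, -0.16 and 0.15. Gabbr1 on 1455021_at was lower in all 3 pairs, by little in pairs 1 and 3 (-0.09 and -0.08) and by more in pair 2 (-1.17). Glrb had 257, 70.1 and 121 in the knockout mice, and differed from the littermate by 0.29 in pair 1 and by 0.00334 in pair 3.

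Gria2 and Grik5 had scaled values in knockout replicate 2 that no other array approached. Gria2 had 187 in this array on 1421970_a_at, below the 482 to 696 of the other 5, but 641 on 1453098_at, above their 168 to 348. After scaling, probe sets of 1 gene thus moved in opposite directions in it. Grik5 had 2513 in it, against 181 to 381 elsewhere. The scaling multiplied this array by 19.5 and the others by 1.86 to 2.94. As deposited, both Gria2 probe sets were lowest in this array (9.6 and 32.9). Deposited Grik5 was 129 in it, within the 72.5 to 133.7 of the others. There were 7 receptor probe sets above the median in this array alone: those of Chrna2, Gabrd, Gabrp (both), Gria3, Grin2b (1431700_at) and Grin3b. They make 10.9% of the receptor probe sets, beside 9.81% of all probe sets. In the same array 3 of 8 muscle markers were above the median, and none in the other 5.

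**Figure D4:**
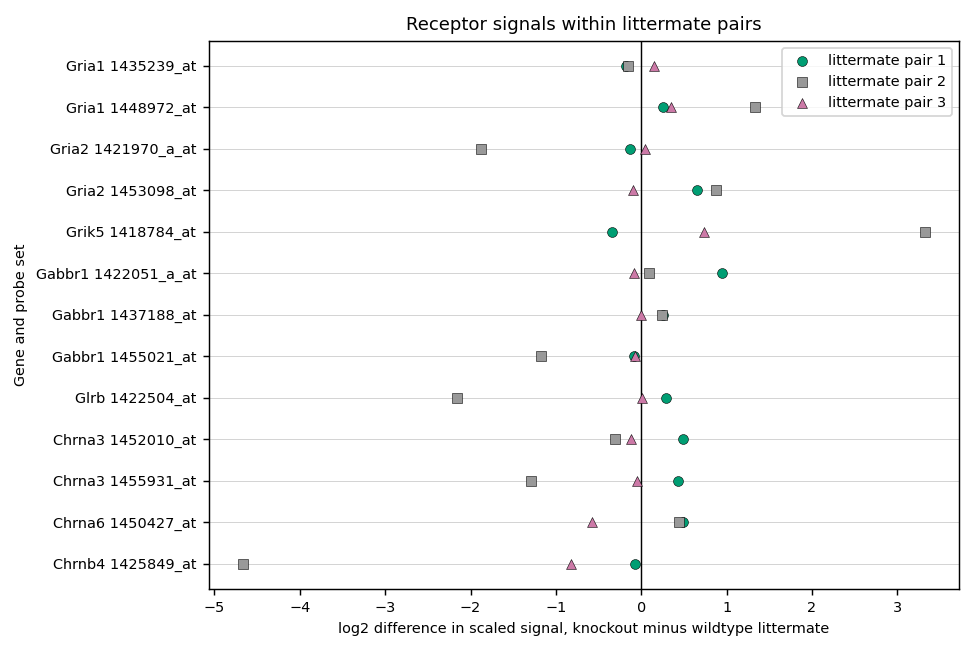
Log2 difference in scaled signal, knockout minus wildtype littermate (x axis), for the 13 tested receptor probe sets, 1 symbol per littermate pair. Differences in pairs 1 and 3 lie within 1 of zero, and Chrnb4 is to the left of zero in all 3 pairs. The largest differences, for Chrnb4 (-4.67) and Grik5 (3.33), are those of pair 2.

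The proteins that traffic, anchor or serve these receptors were expressed about as often as genes in general. Of 49 genes in the list 35 were measured on 50 probe sets, of which 23, of 18 genes, were expressed in all 3 wildtype arrays, or 46% beside 45.4% of all probe sets. For AMPA receptors these included the auxiliary subunits Cacng3 (351 ± 49.6) and Cacng4 (643 ± 26.4) and the PDZ proteins Grip1 (658 ± 148 on 1435951_at) and Pick1 (316 ± 28.4; SD, n = 3 for each). Of the postsynaptic scaffold proteins, Dlg1, Dlg3 and Dlg4 were expressed (639 ± 27.8 on 1415691_at, 641 ± 42.0 and 304 ± 26.6 on 1419580_at), while both probe sets of Dlg2 were below the median in every wildtype mouse. The other Dlg4 probe sets were above it in 1 wildtype mouse (1419581_at) and in none (1460261_at). Homer3 (336 ± 85.3), which links metabotropic glutamate receptors to internal calcium stores, was expressed, whereas all 3 probe sets of Homer1 were not.

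On the inhibitory side, Nlgn2, an adhesion protein of inhibitory synapses, had 824, 700.2 and 1547, and Gabarap, which binds GABA-A receptors, 3071, 2749 and 3944. Of the wildtype mice, replicate 3 had the highest signal for both. Of the cascade that metabotropic glutamate receptors control in ON bipolar cells, the G protein Gnao1 on 1421152_a_at (918 ± 82.4), Gnb3 (2352 ± 791), which cones also use, and Rgs7 (301 ± 28.3) were expressed. The other 2 Gnao1 probe sets, with means of 8.96 and 31.3, were below the median in every wildtype mouse. The channel Trpm1 had 199, 113 and 106 on 1418935_at, above the median in replicate 1 only, and a mean of 6.99 on its other probe set. Rgs11 was below the median in all. Nyx, Lrit3 and Gpr179, also on the list, were not measured. Of the metabotropic glutamate receptors only Grm8 was measured, so Grm6 was not. Rapsn and Musk, which cluster nicotinic receptors at the muscle synapse, were below the median in every wildtype mouse.

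In the knockout, 25 probe sets of these partner proteins were tested and 0 were called, with or without knockout replicate 2 (limma). The median log2 difference was -0.03 in pair 1 where 12 of 25 were higher in the knockout. It was 0.02 in pair 3, where 14 of 25 were higher. In pair 2 it was -0.64 with 10 of 25 higher.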

How the data were processed

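Retinal RNA of 3 wildtype and 3 Nhlh2 knockout mice was measured on 1 array each. The authors deposited linear intensities, 1 for each probe set of an array, from the MAS 5.0 algorithm. It subtracts background and the signal of mismatched probes. Its scaling target is not given in the sources used here. Gene symbols came from a platform annotation table that paired 20393 of 22690 probe sets with 1 symbol, 691 with several and left 1606 unlisted. All 50 receptor symbols were found in RefSeq, and 0 probe sets with several symbols matched the rule. Each array was scaled to a 2% trimmed mean of 500. Levels were described by the array's median, the study's rule for expressed genes where no present calls are at hand, as here. Knockout and wildtype were compared with limma 3.58.1 in R 4.3.3 on log2 of the scaled signal plus 1, for probe sets above the median in at least 3 of 6 arrays, with Benjamini-Hochberg adjustment over all of them. P-values measure the spread between mice with 1 array each, so differences between mice and between arrays are not separated. The main fit held no term for the littermate pair. The script was tested on simulated data. The members, lists and tests were chosen with earlier results of these data known. Text names genes expressed in all or none of the wildtype arrays and receptors whose difference had 1 sign in all pairs or in pairs 1 and 3. Other genes were named after their values were seen.

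The series design names mice of the same number as littermates. After removal of the group means the correlation within pairs was 0.287, -0.141 and 0.175, and wildtype 2 with knockout 1 had 0.375. Arrays carry no read depth, so the number of mice limits the precision.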

Additional observations from a re-analysis of the deposited data

How the results depend on the processing

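The count of receptor probe sets expressed in wildtype depended on the threshold: 9 at the median, 23 at the 25th percentile and 1 at the 75th. It was 8 with plain _at probe sets and 10 without any 1 wildtype array. In the knockout comparison 0 receptor probe sets, and 0 probe sets in all, were called under every alternative run, with lowest adjusted p-values of 0.448 to 1. These were 4 other scalings, another constant, 2 other filters, array weights, an intensity trend, the littermate pair as a replicate block, and each array left out. The block, with all pairs or with pairs 1 and 3 alone, left the count of calls at 0. Without a filter 584 probe sets, 2 of them receptors, were at an unadjusted p under 0.05, and array weights gave 1116 there, 1 of them a receptor. The median log2 difference of the tested receptors was 0.0186. It was -1.17 with signals as deposited and 0.243 with no filter, which takes in all 64 probe sets. Leaving out 1 array gave -0.0845 to 0.133. Quantile normalization of 5 arrays without knockout replicate 2, added after the data were seen, gave 0.0766. With the deposited signals the median of all probe sets tested was -1.38, so changes there are relative to that shift.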
